A study of Homo sapiens with 6 samples.

Results

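A group of 10 genes that NF-kB is known to induce, and whose products mostly favour cell survival or act in cell adhesion, was examined in DMS53 cells with enforced expression of ONECUT2 (OC2). The genes were listed by name with earlier results of these data known, and all 10 were found among the 62696 genes of the count tables. The group holds BIRC2, BIRC3 and XIAP of the inhibitor of apoptosis (IAP) family, and CFLAR and TRAF1, which act near death receptors. The others are TNFAIP8, reported to counter apoptosis, IER3 and SOD2, which respond to stress, and ICAM1 and TNFAIP2, which act at the cell membrane. DMS53 is an established NE-SCLC cell line. The control cells carried an empty lentiviral vector with mGFP and puromycin resistance, the OC2-OE cells carried the same kind of vector with mGFP-tagged OC2, and both were selected with puromycin. RNA-Seq was performed on 3 libraries of each group, and the study calls the RNA-Seq experiments of each condition independent. The labels do not say whether cultures or transductions were separate, and a p-value here measures the spread between these libraries. That spread was small, with a coefficient of variation beyond counting error of 2.20% as estimated by edgeR, so that modest changes give very small p-values. Expression of OC2 was constitutive, and all cells come from 1 cell line.

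NF-kB is a family of dimeric transcription factors held in the cytoplasm by inhibitor proteins. Signals such as tumour necrosis factor (TNF) lead to the destruction of the inhibitors, and the dimers then enter the nucleus and bind short DNA sites called kB sites. Among the genes they switch on are inhibitors of caspases and of death receptor signalling, which let a cell live through the same TNF signal that can also kill it, and adhesion molecules that leukocytes bind.

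The libraries held between 16533284 and 19099337 counted read pairs. ONECUT2, which checks the labels, went from 24.6 ± 0.332 to 3944 ± 70.3 CPM (SD, n = 3), where CPM are counts scaled per library by its size after TMM normalization. The groups were compared over 17307 genes by the quasi-likelihood test of edgeR, and a gene is called changed here at an adjusted p under 0.001, the cut-off of the study. The DMS53 libraries expressed all 8 NE markers examined, and their summed level fell from between 1528 and 1543 CPM in the control libraries to between 881 and 909 CPM in the OC2-OE libraries. Of these markers 6 were called lower and 1 higher, which was CHGA, from 72.2 to 150 CPM. Of 10 leukocyte markers 5 had under 10 counts over all 6 libraries. Among these, PTPRC had 0 counts in control and 3 in OC2-OE libraries, and ITGB2 had 0 and 2. ITGAL went the other way, with 35 counts in control and 17 in OC2-OE libraries. Only CD14 and LYZ had enough counts for the test, and both were called higher. The summed level of the list went from between 4.71 and 5.50 to between 8.02 and 9.88 CPM. Fibroblast markers summed to between 22.7 and 25.4 CPM and then to between 28.8 and 32.5 CPM. Of the 8 on that list 4 could be tested, with 2 called higher and 1 lower. Endothelial markers went from between 13.4 and 15.3 down to between 4.39 and 4.96 CPM. Here 3 of 8 could be tested, with 0 called higher and 2 lower. The part of these lists in the results on the 10 genes was not tested.

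All 10 genes had higher expression in OC2-OE cells. All 10 passed the filter on low counts and all 10 were called higher, where 27.8% of all tested genes were called higher. With DESeq2 the number was 8, and with 1 library left out it was 9 or 10. None was called lower by edgeR, by DESeq2 or by limma voom, where edgeR called 28.7% of all genes lower. For edgeR this follows from all 10 being called higher, and so does 0 lower at an unadjusted p under 0.05. For each of the 10 genes every OC2-OE library lay above every control library, as it did for 36.5% of all tested genes. The log2 fold changes, estimated by edgeR with a standard error (SE), ran from 0.48 to 4.71 with a median of 0.82, and the median over all tested genes was 0.01. The size of the rise differed widely. In 4 of the genes (IER3, BIRC3, TNFAIP2 and ICAM1) the log2 fold change was at least 1, which 8.29% of all tested genes reached with a call, and in the other 6 it was below 1. In bulk RNA a change in the number of cells that express a gene and a change in RNA per cell cannot be told apart.

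**Figure D1:**
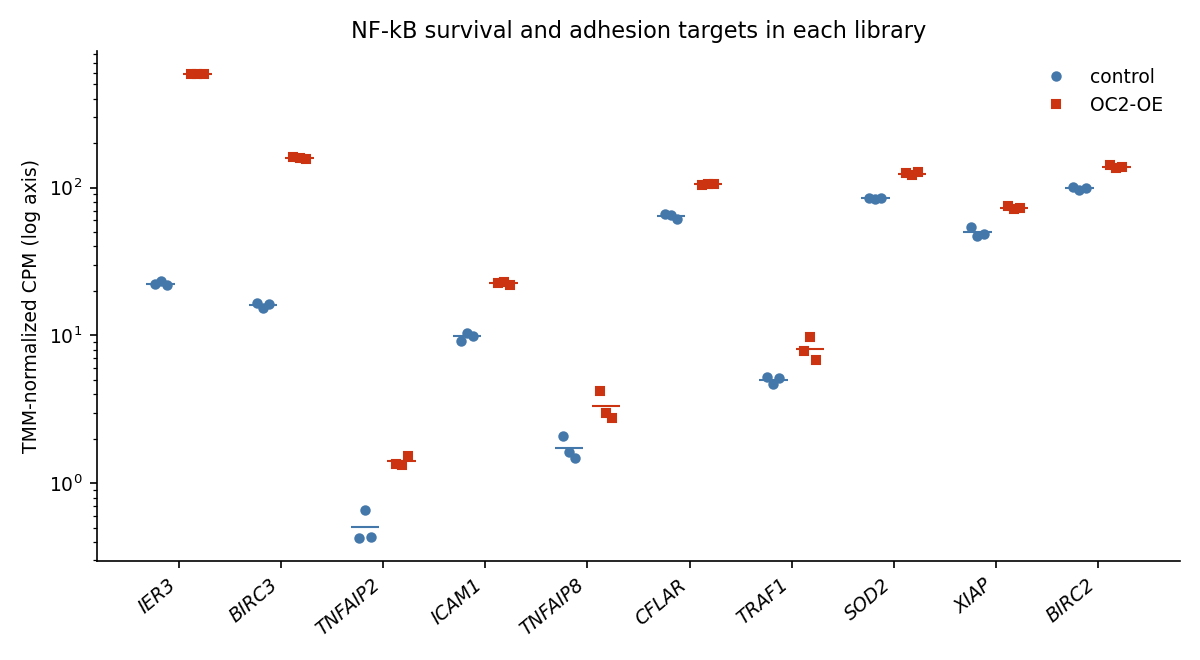
TMM-normalized CPM (log axis) of the 10 genes in each library, with 3 control libraries as blue circles, 3 OC2-OE libraries as red squares and the mean of each group as a short line. The red squares lie above the blue circles for every gene, from 22.5 to 586 CPM on average for IER3 and from 99.5 to 139 CPM for BIRC2.

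Upstream sequences were read from RefSeq for the genes that move together, to show which of them hold a consensus motif of kB sites. A total of 9 of the 10 genes, all but IER3, matched by symbol and gave 22 windows of 250 bases before an annotated start on GRCh38.p14. The NF-kB consensus motif was searched on both strands. It was found in 2 of the 22 windows, 1 of BIRC3 and 1 of CFLAR, and in 5.21% of 35116 such windows of all genes. The sequences below are those 2 windows and the first window of BIRC2, the neighbour and close relative of BIRC3, each written 5′ to 3′ with the matches in capitals. The BIRC3 window is chr11:102317234-102317483, the BIRC2 window is chr11:102346964-102347213 and the CFLAR window is chr2:201118466-201118715, all on the plus strand.
BIRC3: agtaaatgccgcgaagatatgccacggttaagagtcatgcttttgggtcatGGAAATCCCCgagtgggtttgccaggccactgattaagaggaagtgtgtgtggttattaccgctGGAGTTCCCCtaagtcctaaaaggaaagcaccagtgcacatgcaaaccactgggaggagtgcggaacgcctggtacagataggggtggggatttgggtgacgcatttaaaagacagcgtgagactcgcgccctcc
BIRC2: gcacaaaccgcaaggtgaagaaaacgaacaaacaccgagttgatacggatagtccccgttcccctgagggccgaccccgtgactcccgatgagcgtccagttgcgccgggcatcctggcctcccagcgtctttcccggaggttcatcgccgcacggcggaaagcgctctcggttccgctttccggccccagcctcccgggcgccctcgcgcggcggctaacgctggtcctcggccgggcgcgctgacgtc
CFLAR: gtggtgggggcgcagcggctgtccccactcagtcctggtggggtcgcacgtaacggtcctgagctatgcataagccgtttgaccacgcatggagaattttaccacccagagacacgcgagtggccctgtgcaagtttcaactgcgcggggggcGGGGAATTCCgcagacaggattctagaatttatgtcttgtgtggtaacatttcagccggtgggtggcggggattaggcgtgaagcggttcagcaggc
The capitals in the BIRC3 window, GGAAATCCCC from 199 to 190 bases and GGAGTTCCCC from 135 to 126 bases before the start, are plus-strand letters that match the motif when read on the minus strand, as GGGGATTTCC and GGGGAACTCC. The match of CFLAR, GGGGAATTCC, lay on the plus strand from 97 to 88 bases before the start. No window of BIRC2, ICAM1, XIAP, TRAF1, SOD2, TNFAIP2 or TNFAIP8 held the motif as searched, which does not show that they lack any kB site. The ICAM1 window holds the letters tggaaattcc, which did not count as a match. They start with t, where the matches above, read on their own strand, start with g. The core letters bound by ONECUT proteins, searched as ATTGAT and as ATCGAT on both strands, were in 0 of the 22 windows, and in 5.58% and 0.655% of all windows. A match is a description of the letters only. Which start these cells use was not measured, and the starts of RefSeq differ from those of the gene coordinates given below, which are from the count tables.

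The IAP genes encode proteins with BIR domains. BIRC2 and BIRC3 encode cIAP1 and cIAP2, ubiquitin ligases of the TNF receptor complex that promote NF-kB signalling and restrain cell death, and XIAP binds and blocks caspases directly. BIRC3 (ENSG00000023445.16, chromosome 11 of GRCh38 from 102317450 to 102339403) had 16.5, 15.3 and 16.4 CPM in control replicates 1, 2 and 3, and 162, 158 and 155 CPM in the OC2-OE replicates. The groups were far apart, and the libraries within a group differed by little. On average BIRC3 rose 9.85-fold, from 16.1 ± 0.670 to 158 ± 3.07 CPM (SD, n = 3), and its log2 fold change was 3.30 (SE 0.048, adjusted p = 1.34e-93, edgeR). BIRC2 (ENSG00000110330.10, chromosome 11 from 102347211 to 102378670) was already high in control cells, at 102, 97.1 and 99.7 CPM, and had 141, 137 and 139 CPM in OC2-OE cells. This was a rise of 1.40-fold, or 0.48 on the log2 scale (SE 0.034, adjusted p = 3.56e-26, edgeR), the smallest of the 10 genes. XIAP (ENSG00000101966.14, chromosome X from 123859712 to 123913972) had 54.0, 47.3 and 48.6 CPM in control cells and 74.6, 71.5 and 72.3 CPM in OC2-OE cells. Control replicate 1 was the highest of the control libraries and still lay below all OC2-OE libraries. The log2 fold change of XIAP was 0.54 (SE 0.045, adjusted p = 4.58e-21, edgeR).

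Within a library the ratio of 2 genes does not depend on how libraries are scaled, and 4 such ratios were compared between groups. Per kilobase of exon, BIRC3 stood at 0.0976, 0.0947 and 0.0986 of the level of BIRC2 in control replicates 1 to 3, and at 0.687, 0.695 and 0.674 of it in OC2-OE replicates 1 to 3. The ratio was thus 7.07-fold higher in OC2-OE cells, in 3 of 3 libraries (exact permutation test, two-sided, p = 0.1, and 0.133 after Benjamini-Hochberg adjustment over 4 ratios). An exact p of 0.1 is the smallest that 3 libraries against 3 can give. BIRC2 and BIRC3 are paralogs, and reads that fit both could be lost or split in the counting.

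**Figure D2:**
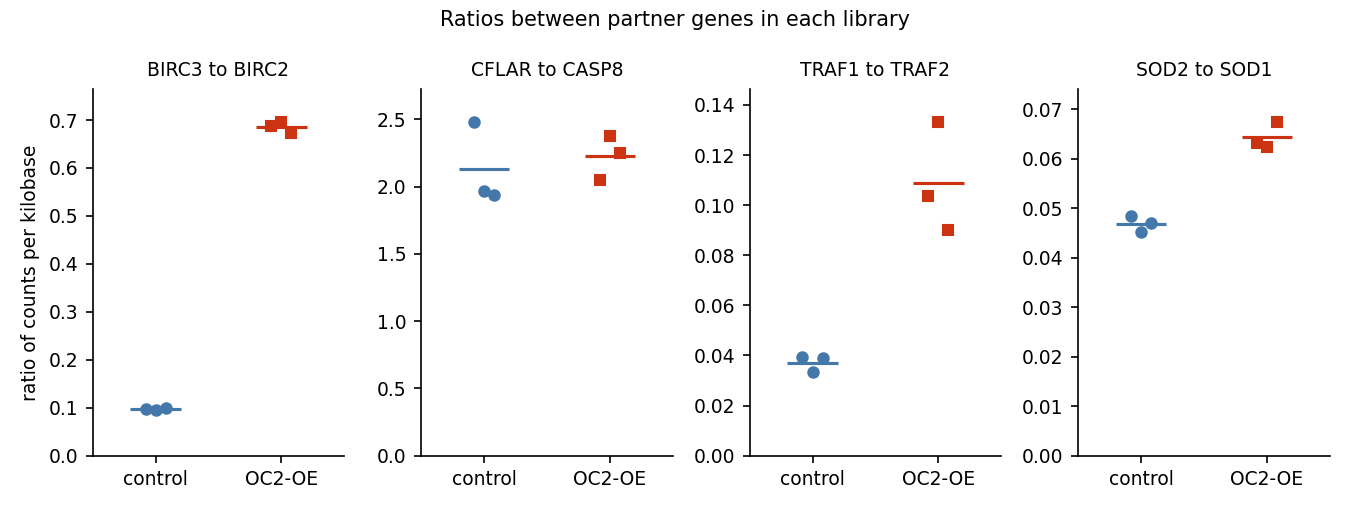
Ratios of counts per kilobase of exon within each library (linear axes from 0) for 4 pairs of partner genes, with control libraries as blue circles, OC2-OE libraries as red squares and lines at the group means. BIRC3 to BIRC2, TRAF1 to TRAF2 and SOD2 to SOD1 were higher in all 3 OC2-OE libraries, and the groups overlapped for CFLAR to CASP8, at 2.13 and 2.22 on average.

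BIRC3 and BIRC2 lie side by side on the long arm of chromosome 11, with 7808 bases between the end of BIRC3 and the start of BIRC2. The nearest tested protein-coding genes on each side were CFAP300 and YAP1 before them and TMEM123 and MMP7 after them. All 4 were called higher. CFAP300, a gene of motile cilia, rose by 1.31 on the log2 scale (SE 0.17), and YAP1, the effector of the Hippo pathway, by 3.34 (SE 0.15). For TMEM123, a membrane protein gene, the log2 fold change was 0.15 (SE 0.029). MMP7, a secreted matrix protease, had 0 counts in control and 152 in OC2-OE libraries, which is at least 47.9-fold higher against a floor of 3 counts over the control group. The rise along this stretch was uneven, since BIRC2 and TMEM123, which rose less than 2-fold, lie between BIRC3 and MMP7. In a wider window, chosen after the values were seen, 13 other genes within 1 Mb of the pair were tested, of which 9 were called higher and 2 lower, where 27.8% and 28.7% of all tested genes were called so.

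**Figure D3:**
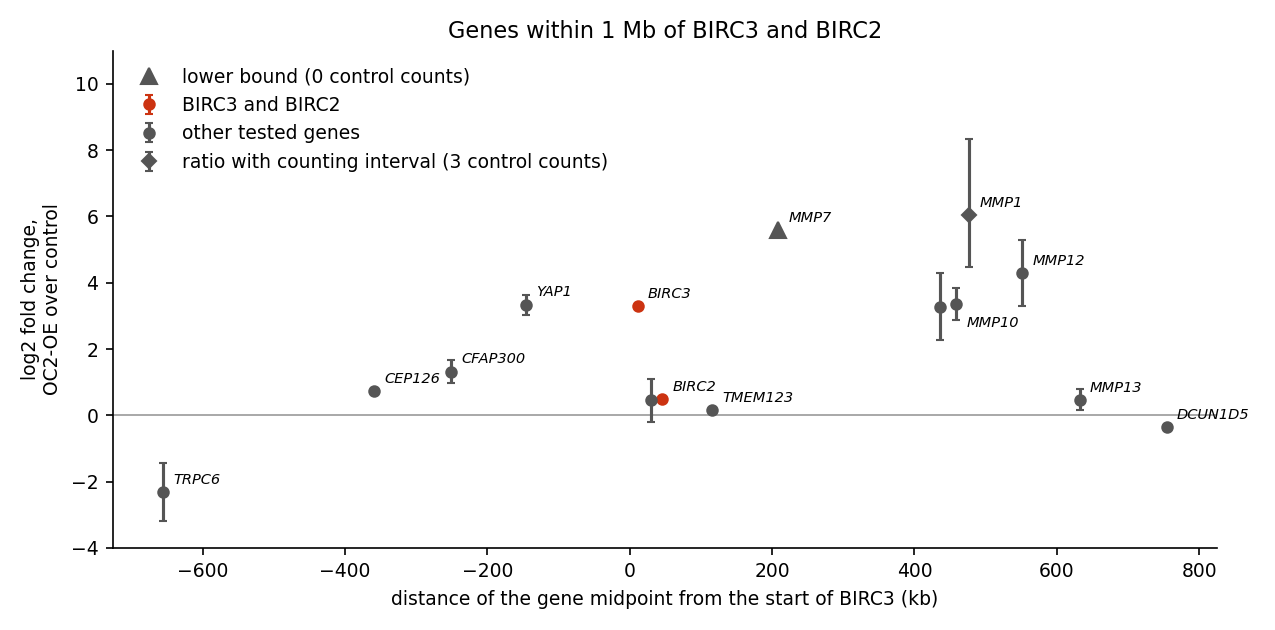
Log2 fold change of the tested genes within 1 Mb of BIRC3 and BIRC2 against the distance of each gene's midpoint from the start of BIRC3 in kb, with bars of 2 standard errors from edgeR (the 2 unlabelled points are genes without a symbol). MMP7 is drawn as a lower bound because it had 0 control counts, and MMP1, with 3 control counts, as a ratio of 65.5 with its exact 95% counting interval of 22.1 to 320.2. BIRC3 (3.30) and YAP1 (3.34) lie at a similar height, and BIRC2 (0.48) lies above TMEM123 (0.15).

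CFLAR and TRAF1 act at or near death receptors, and TNFAIP8 is described with them. CFLAR encodes c-FLIP, a relative of caspase 8 without protease activity that keeps it from being activated. CFLAR (ENSG00000003402.21, chromosome 2 from 201116154 to 201176687) had 66.7, 65.5 and 61.4 CPM in control cells and 104, 105 and 106 CPM in OC2-OE cells. Genes on the opposite strand overlap 10.1% of its exon bases and had 86 counts over all libraries. CFLAR rose 1.63-fold, or 0.71 on the log2 scale (SE 0.039, adjusted p = 2.88e-34, edgeR). CASP8 itself, which begins 56756 bases after the end of CFLAR, rose by 0.64 on the log2 scale (SE 0.093, adjusted p = 9.26e-10, edgeR). The ratio of CFLAR to CASP8 per kilobase was 2.48, 1.97 and 1.94 in control replicates 1 to 3, and 2.05, 2.37 and 2.25 in OC2-OE replicates 1 to 3. These values overlapped (exact permutation test, two-sided, p = 0.7), which does not show that the ratio stayed equal. Among the other neighbours of CFLAR, NDUFB3, a subunit of respiratory complex I, and HYCC2 were called lower, with log2 fold changes of -0.27 and -0.16. FLACC1 was not called, at 0.94 on the log2 scale (SE 0.39, adjusted p = 0.0261, edgeR) from 24 and 49 counts.

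TRAF1 encodes an adaptor that pairs with TRAF2 and the cIAPs. TRAF1 (ENSG00000056558.11, chromosome 9 from 120902393 to 120929173) had 5.25, 4.66 and 5.17 CPM in control cells and 7.83, 9.75 and 6.81 CPM in OC2-OE cells, among which replicate 2 was the highest. Its log2 fold change was 0.69 (SE 0.13, adjusted p = 1.28e-06, edgeR). TRAF2 moved the other way and fell by 0.85 on the log2 scale, from 111 ± 3.56 to 61.3 ± 1.09 CPM (SD, n = 3). The ratio of TRAF1 to TRAF2 per kilobase therefore went from 0.0372 ± 0.00345 to 0.109 ± 0.022 (SD, n = 3), 2.90-fold higher with no overlap (exact permutation test, two-sided, p = 0.1, the smallest possible).

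TNFAIP8, the founding member of the TIPE family and a gene reported to counter apoptosis, was among the lowest of the 10 genes. TNFAIP8 (ENSG00000145779.8, chromosome 5 from 119268692 to 119399688) rested on 90 counts in control and 183 in OC2-OE libraries. It had 2.09, 1.61 and 1.48 CPM in control cells and 4.23, 3.0 and 2.74 CPM in OC2-OE cells. OC2-OE replicate 1 was well above the other OC2-OE libraries, and the gap between the highest control and the lowest OC2-OE library was small. The log2 fold change was 0.94 (SE 0.21, adjusted p = 4.31e-05, edgeR). Without OC2-OE replicate 1 it was 0.73 and the gene was no longer called, with an adjusted p of 0.00637 from edgeR. It was not called by DESeq2 either, with an adjusted p of 0.00151.

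IER3 and SOD2 are induced under stress. IER3 is a short immediate early gene whose product affects survival under TNF. IER3 (ENSG00000137331.12, chromosome 6 from 30743199 to 30744548) had 22.2, 23.2 and 21.9 CPM in control cells and 584, 586 and 589 CPM in OC2-OE cells. This was the largest rise among the 10 genes, 26.1-fold or 4.71 on the log2 scale (SE 0.034, adjusted p = 9.93e-127, edgeR), and 99.7% of all tested genes had a lower log2 fold change. Other genes overlap 38.9% of its exon bases on the opposite strand, but had only 456 counts over all 6 libraries, against 1160 in control and 32071 in OC2-OE libraries for IER3. The 10 genes together summed to between 350 and 364 CPM in control cells and to between 1217 and 1227 CPM in OC2-OE cells. IER3 made up between 6.10% and 6.65% of this sum in the control libraries and between 47.6% and 48.2% in the OC2-OE libraries. Without IER3 the sum went from between 326 and 342 CPM to between 631 and 643 CPM.

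SOD2 encodes the manganese superoxide dismutase of mitochondria. SOD2 (ENSG00000291237.1, chromosome 6 from 159669069 to 159762529) had 85.7, 83.8 and 84.9 CPM in control cells and 125, 122 and 127 CPM in OC2-OE cells. The libraries of each group lay close together, and the log2 fold change was 0.56 (SE 0.036, adjusted p = 2.90e-29, edgeR). Another annotated gene, SOD2-OT1, shares 5.18% of its exon bases on the same strand, where reads could be left uncounted. On the opposite strand ACAT2 and WTAP overlap 3.14% of them and had 14980 counts over all libraries, against 4385 control and 6821 OC2-OE counts of SOD2, and the counting used the strand. SOD1, the cytosolic enzyme, changed by 0.10 on the log2 scale (adjusted p = 0.000983, edgeR). The ratio of SOD2 to SOD1 per kilobase was 0.0469 ± 0.00161 in control and 0.0643 ± 0.00267 in OC2-OE cells (SD, n = 3), 1.37-fold higher (exact permutation test, two-sided, p = 0.1, the smallest possible).

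ICAM1 and TNFAIP2 act at the cell membrane. ICAM1 is an adhesion molecule that leukocyte integrins bind, and TNFAIP2, also known as M-Sec, takes part in forming thin membrane protrusions. ICAM1 (ENSG00000090339.9, chromosome 19 from 10271093 to 10286615) had 9.15, 10.5 and 9.96 CPM in control cells and 22.8, 22.9 and 21.8 CPM in OC2-OE cells. Genes on the opposite strand overlap 25.4% of its exon bases and had 22 counts over all libraries. ICAM1 rose 2.29-fold, or 1.19 on the log2 scale (SE 0.084, adjusted p = 2.85e-26, edgeR). TNFAIP2 (ENSG00000185215.11, chromosome 14 from 103121476 to 103137439) was the lowest of the 10 genes, with 26 control and 77 OC2-OE counts in all. It had 0.428, 0.657 and 0.430 CPM in control cells and 1.36, 1.33 and 1.54 CPM in OC2-OE cells, with control replicate 2 the highest of its group. The log2 fold change of TNFAIP2 was 1.47 (SE 0.34, adjusted p = 7.23e-05, edgeR). Its call was lost without control replicate 1 (log2 fold change 1.35), without control replicate 3 (1.38) and without OC2-OE replicate 3 (1.41), and adjusted p-values from edgeR were then between 0.00109 and 0.00120. With DESeq2 the adjusted p was 0.00195.

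**Figure D4:**
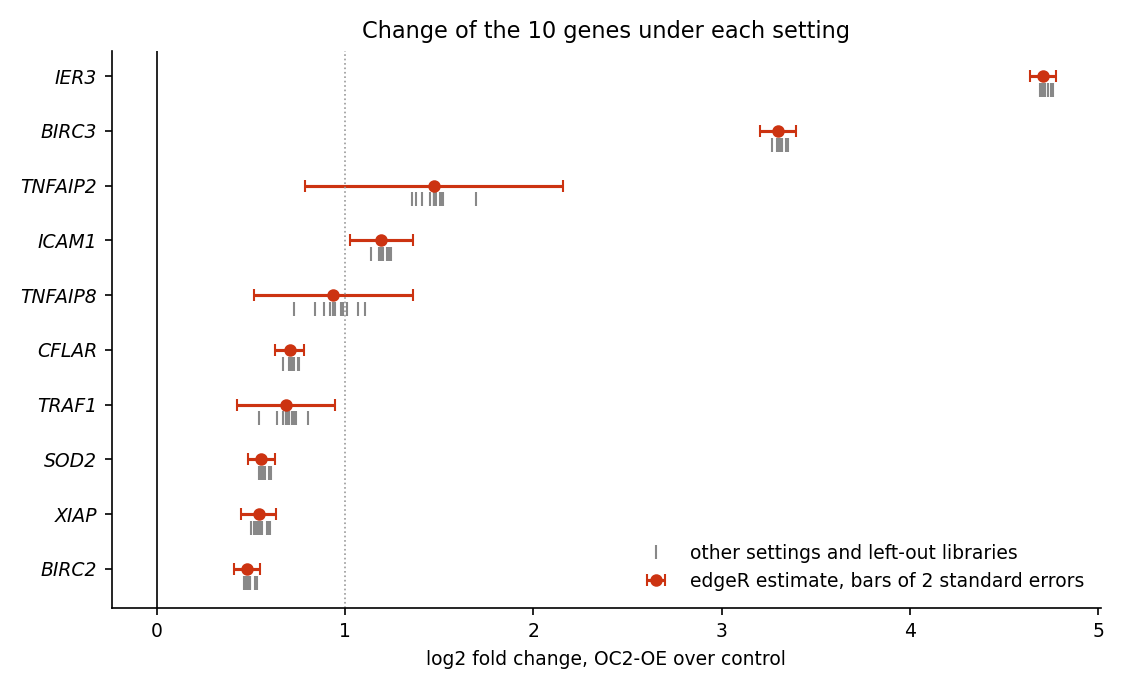
Log2 fold change of OC2-OE over control for the 10 genes, with the edgeR estimate as a point, bars of 2 standard errors and grey ticks for the other settings and left-out libraries. The dotted line marks a log2 fold change of 1, beyond which IER3 (4.71), BIRC3 (3.30), TNFAIP2 (1.47) and ICAM1 (1.19) lie.

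To compare levels between genes, CPM were divided by the exon length of each gene in kilobases, which understates genes with many rarely used exons such as CFLAR and SOD2. In control cells BIRC2 had the highest level per kilobase, 22.0 ± 0.520, followed by IER3 at 16.6 ± 0.525 (SD, n = 3). XIAP at 5.25, SOD2 at 4.67, CFLAR at 2.87, ICAM1 at 2.86, BIRC3 at 2.14 and TRAF1 at 1.12 came next, and TNFAIP8 and TNFAIP2 stood last at 0.203 and 0.0999. Only CFLAR and ICAM1 overlapped as neighbours in this order. In OC2-OE cells IER3 came first with 434 ± 1.77, ahead of BIRC2 at 30.7 ± 0.511 and BIRC3 at 21.1 ± 0.408 CPM per kilobase (SD, n = 3). BIRC3 had thus moved from position 7 to position 3, and ICAM1, at 6.52, lay above CFLAR, at 4.69. No neighbours in the OC2-OE order overlapped between libraries, and TRAF1, TNFAIP8 and TNFAIP2 kept positions 8, 9 and 10.

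Genes that work with the 10 were counted in 7 lists written from general knowledge, which held 67 genes, of which 58 could be tested. They moved in both directions, with 20 called higher and 20 lower, shares to be read against 27.8% and 28.7% of all tested genes, and a median log2 fold change of -0.07. Of 7 other IAP genes and IAP antagonists, 4 were tested, with 1 higher, 2 lower and a median of -0.24. BIRC5, which encodes survivin, a member of the chromosomal passenger complex in mitosis, fell from 117 ± 1.2 to 23.8 ± 0.817 CPM (SD, n = 3). Its log2 fold change was -2.29 (adjusted p = 1.38e-77, edgeR). BIRC6 fell by 0.39 on the log2 scale, and HTRA2, a mitochondrial protease that can antagonize IAPs, rose by 0.23. HTRA2 was no longer called without control replicate 3 or without OC2-OE replicate 2. NAIP, BIRC7 and XAF1 had too few counts for the test.

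Of 14 partners at death receptors and the TNF receptor complex, 13 were tested, with 6 higher, 4 lower and a median of 0.06. The adaptor TRADD rose from 9.33 ± 0.371 to 18.1 ± 0.487 CPM (SD, n = 3). Its log2 fold change was 0.96 (SE 0.089). MLKL, the pore-forming effector of necroptosis, rose by 0.95 on the log2 scale. MAP3K14, the kinase NIK of the noncanonical NF-kB pathway, fell from 67.3 ± 3.46 to 32.7 ± 1.53 CPM (SD, n = 3). Its log2 fold change was -1.04 (SE 0.050). TRAF3, the adaptor that brings NIK to TRAF2 and the cIAPs, rose by 0.89 on the log2 scale, so that partners of BIRC2 and BIRC3 moved in both directions. Of 7 genes of the mitochondrial caspase pathway, all tested, 1 was higher and 2 lower, with a median of -0.13. CYCS, which encodes cytochrome c, fell by 0.16 on the log2 scale.

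Of the 6 TNFAIP and TIPE family genes outside the 10, 3 were tested, with 1 higher, 2 lower and a median of -0.26. TNFAIP3, which encodes A20, an inhibitor of NF-kB signalling that NF-kB itself induces, rose from 12.3 ± 0.885 to 83.6 ± 0.811 CPM (SD, n = 3). Its log2 fold change was 2.76 (SE 0.059). TNFAIP8L1 fell by 1.39 on the log2 scale, in the direction opposite to TNFAIP8, and TNFAIP1 fell by 0.26. TNFAIP6 had 0 counts in all libraries, which allows up to 0.0580 CPM in the control and 0.0547 CPM in the OC2-OE group by counting error only. Of 7 genes of the IER family and of stress, 1 was higher and 3 lower, with a median of -0.39. IER5L, GADD45A and PMAIP1, which encodes the BH3-only protein NOXA, fell by 1.43, 0.97 and 0.46 on the log2 scale. The gene called higher was IER2, at 0.24 on the log2 scale.

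Of 10 genes of superoxide and peroxide removal, 4 were higher and 3 lower, with a median of -0.01. With limma voom and without a filter on low counts only 3 were called higher. The same held without control replicate 1 or 3 or OC2-OE replicate 1 or 2, and SOD1 lies close to the threshold. With at least 10 counts in every library the number was also 3, and SOD3 could not be tested there. SOD3, the extracellular superoxide dismutase, rose by 3.76 on the log2 scale (SE 0.46), but from 6 control to 91 OC2-OE counts. CCS, the copper chaperone of SOD1, rose by 0.66, and GPX1 fell by 0.37. Of 16 adhesion genes, 14 were tested, with 6 higher, 4 lower and a median of 0.18. CD44, the hyaluronan receptor, rose by 3.94 on the log2 scale (SE 0.42) from 7 to 120 counts, and JAM2, a junctional adhesion molecule, by 3.39 (SE 0.29) from 18 to 204 counts. L1CAM, a neural adhesion molecule, rose by 1.29 on the log2 scale. ICAM2, CD58 and NECTIN2 were also called higher, by 0.84, 0.61 and 0.48 on the log2 scale. The 4 genes called lower were NECTIN1, from 99.0 ± 3.48 to 50.3 ± 2.02 CPM (SD, n = 3), ALCAM, JAM3 and PVR, and they fell by 0.98, 0.53, 0.34 and 0.16 on the log2 scale. Without control replicate 3 or without OC2-OE replicate 2, 3 adhesion genes were called lower. VCAM1, another adhesion molecule known as an NF-kB target, had 0 counts in control and 2 in OC2-OE libraries, and ICAM4 had 0 in both.

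**Figure D5:**
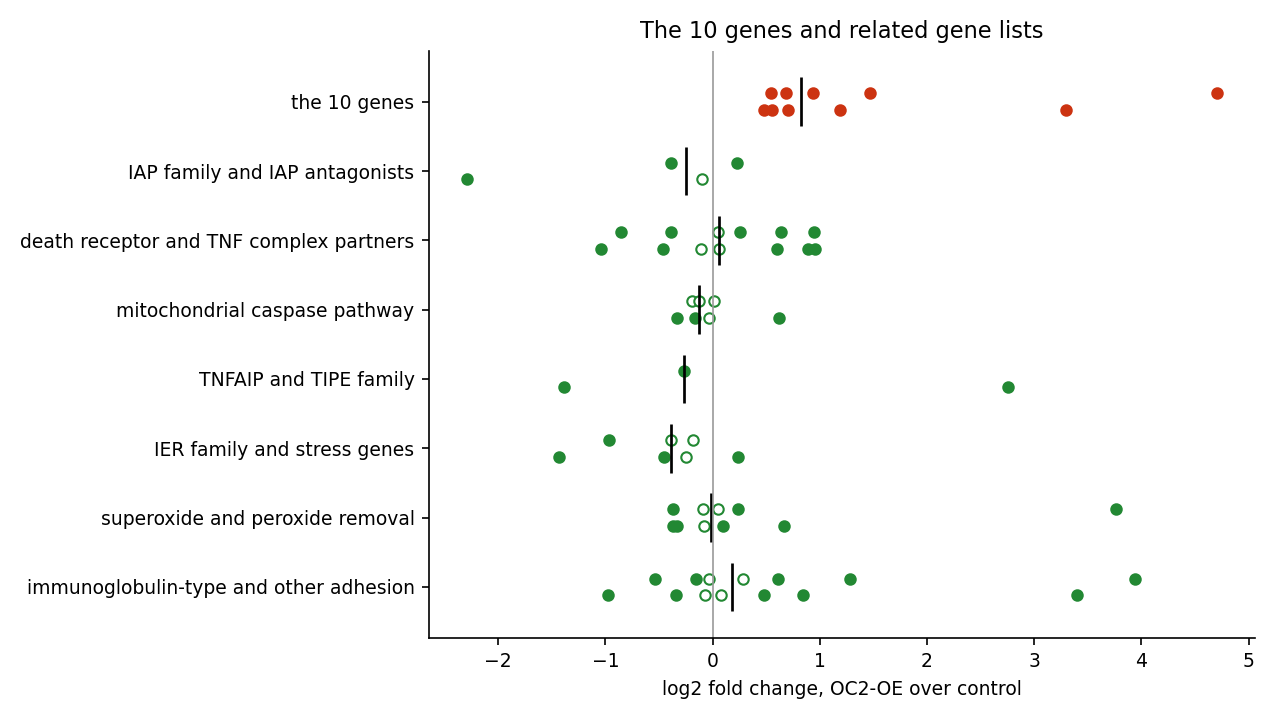
Log2 fold change of OC2-OE over control for the 10 genes (red) and for the tested genes of 7 related lists (green), with filled points for genes called at an adjusted p under 0.001, open points for the others and a black line at each median. The 10 genes lie wholly to the right of 0, with a median of 0.82, and each of the other lists has genes on both sides, with medians from -0.39 to 0.18.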

How the data were processed

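The authors deposited raw counts for each library, made from stranded poly(A) libraries with STAR 2.7.9a and featureCounts 1.6.0 (per the file headers, read pairs over the exons of GENCODE release 42, on the strand of the gene). Symbols were matched for 62625 of 62696 identifiers, and 17307 genes passed filterByExpr. TMM normalization and the quasi-likelihood test of edgeR 4.0.16 in R 4.3.3 were run with robust estimates over all genes, with Benjamini-Hochberg adjustment. Standard errors are the log2 fold change over the square root of F. Ratios were compared by exact permutation over libraries. The steps were tested on simulated counts. Depth limits the precision of genes with few counts. The alternatives were other normalizations, DESeq2 1.42.0, limma voom (limma 3.58.1), other count filters, ONECUT2 left out, blocking on replicate number, omission of single libraries and other thresholds. The 10 genes and the lists were chosen with earlier results of these data known. The genes named are the 10, the 3 called genes with the largest change on each list, the partners in ratios and the 2 nearest tested protein-coding genes on each side of BIRC2, BIRC3 and CFLAR. IER2, CHGA, TRAF3, ICAM2, CD58, NECTIN2, the adhesion genes called lower, VCAM1, MMP1, genes at 0 counts and genes too low to test were named after their values were seen. Some genes of the caspase list are not reported here by name.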

Additional observations from a re-analysis of the deposited data

How the results depend on the processing

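All 10 genes kept their direction under all other fits of normalization, test, filter and libraries in which they could be tested. The number called higher was 10 in the other normalizations and with limma voom. A log2 fold change of at least 1 left 4 genes. With DESeq2's Wald test TNFAIP2 (1.48) and TNFAIP8 (0.94) were no longer called, and TNFAIP2 could not be tested with at least 10 counts in every library. When single libraries were omitted, log2 fold changes ran from 1.35 to 1.70 for TNFAIP2 and from 0.73 to 1.11 for TNFAIP8. The IAP list then had between 0 and 1 genes called higher. The superoxide and peroxide list had between 3 and 4 and the adhesion list between 5 and 6, or 4 with at least 10 counts in every library. Deviations of libraries with the same number were not correlated (r between -0.003 and 0.020). No shared effect of replicate number was thus seen, which does not show that the libraries were prepared without pairing. With the replicate block 10 genes were called higher and the log2 fold change of IER3 was 4.71. Depth limits TNFAIP2 and TNFAIP8 most.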
